A study of Mus musculus with 9 samples.

Results

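The transcripts described are those of 8 genes of MHC class II antigen presentation, *H2-Aa*, *H2-Ab1*, *H2-Eb1*, *H2-DMa*, *H2-DMb1*, *Cd74*, *Ciita* and *Ctss*. They were chosen by name, and each of the 8 symbols matched 1 of the 48709 genes in the count table. RNA was sequenced from the duodenum of male C57BL/6 J mice that were 10 weeks old, 6 h after oral treatment. The 9 libraries carry 1 of 3 treatment labels: vehicle; 1,25D3, which is calcitriol, the hormonal form of vitamin D; and 1,25D3 with ZK (ZK168281), an antagonist of the vitamin D receptor VDR. There are 3 mice per label, and each label also bears the number 1, 2 or 3. The label 1,25D3 and ZK is also called co-treatment below. The doses were not stated for the sequenced mice themselves, and whole duodenum holds epithelium, immune cells and stroma together, so that fewer cells of a type and less RNA per cell cannot be told apart.

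MHC class II molecules are pairs of an alpha and a beta chain that carry peptides from the endosomes to the cell surface and show them to CD4+ T cells. The invariant chain, encoded by *Cd74*, fills the peptide groove of a new pair until proteases such as cathepsin S (*Ctss*) cut it down to a short fragment, which the chaperone H2-DM then exchanges for a peptide. Dendritic cells, macrophages and B cells make class II constantly, and enterocytes of the small intestine make it as well. The coactivator CIITA (*Ciita*) switches the genes on. It binds no DNA by itself, and is held at a conserved promoter module, an X box and a Y box, by the factors RFX, CREB and NF-Y.

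The promoters of 5 of the 8 genes were in the RefSeq table used (GRCm38.p6, 250 bases before to 50 after the start). Those in which the X and Y boxes were found are shown. *H2-DMa* and *Ctss*, in which no X box was found here, moved the same way in the results below. The X box core was searched as CTNGNAACT, and the Y box as ATTGG, the NF-Y motif, on both strands. Letters of the X box core were chosen after these sequences were seen. Capitals mark the X box core and the Y box that follows it. The *H2-Eb1* stretch also holds a Y box on the other strand near its end, left in lower case. For *H2-DMb1*, only the X box core with its flanks is shown, since a GENCODE transcript starts within the stretch.
H2-Aa, chr17:34287842-34287932, minus strand: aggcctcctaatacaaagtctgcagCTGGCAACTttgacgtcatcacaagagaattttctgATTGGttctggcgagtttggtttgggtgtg
H2-Eb1, chr17:34305748-34305837, plus strand: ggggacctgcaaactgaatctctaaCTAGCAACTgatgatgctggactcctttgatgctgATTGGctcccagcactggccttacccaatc
H2-DMb1, chr17:34153084-34153113, plus strand: tgaggtttacCTAGTAACTgatgatgctag

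The X box core begins at -84 in *H2-Aa*, at -94 in *H2-Eb1* and at -97 in *H2-DMb1*, counted from the RefSeq start, and 27, 26 and 27 bases separate it from the Y box. The X box core alone was found in 4.10% of the 32851 promoters of the table, and the Y box alone in 37.4%. Both, with the Y box 15 to 30 bases after the X box core, were in 26 promoters (0.0791%), of which 3 belong to the genes described here. Since the X box letters were chosen after these 3 sequences were seen, their match was fixed in advance and tests nothing. The 8-base CRE TGACGTCA lies just after the X box core of *H2-Aa*, no other of the 5 genes has it, and it was in 1.79% of all promoters. The interferon-response core AAANNGAAA was found in the promoters of *Ctss* and *H2-DMa* and in 10.6% of all. *Ctss* and *H2-DMa* had no X box core of these letters in the window. The letters are a description and were tied to no binding measurement.

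The treatment labels were checked against a VDR target. *Cyp24a1*, encoding the enzyme that degrades 1,25D3 and a classical VDR target, was at 6425 to 7633 CPM normalized by the TMM method (TMM CPM) in the 3 libraries numbered 2, and at 2.47 to 9.13 TMM CPM in the other 6. It thus followed the number on the label and went against the treatment on it. Libraries are therefore named by their labels ("labelled 1,25D3 2"), and values are given both by treatment label and by number. The number has no stated meaning. Whether titles or column headers were exchanged cannot be told from the files, so a comparison by treatment label compares the labels and may not compare the treatments. The libraries also fell into sets. Over all genes, the counts of 8 of the 36 pairs of libraries differed by a mean chi-square of 1.80 to 5.20 per gene and those of the other 28 pairs by 84.5 to 349. The library labelled 1,25D3 3 was close to the 3 libraries numbered 1, libraries vehicle 3 and co-treatment 3 were close to each other, as were vehicle 2 and co-treatment 2, and 1,25D3 2 was close to none. The p-values below measure only the spread between such libraries. Each library held 22561400 to 41207455 counts.

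Of the 8 genes, 5 lie within the MHC on chromosome 17 (GRCm38, GENCODE M21). *H2-DMa*, the alpha chain of H2-DM, spans 34119541 to 34139101 on the plus strand, and *H2-DMb1*, a beta chain of H2-DM, spans 34153072 to 34160230 on the plus strand. *H2-Ab1*, the I-A beta chain, spans 34257689 to 34269419 on the plus strand. *H2-Aa*, the I-A alpha chain, spans 34282744 to 34287823 on the minus strand, and *H2-Eb1*, the I-E beta chain, spans 34305867 to 34316674 on the plus strand. *Cd74* is on chromosome 18 (60803848 to 60812652), *Ciita* on chromosome 16 (10480059 to 10528418) and *Ctss* on chromosome 3 (95526786 to 95556403), all on the plus strand. C57BL/6 J mice carry the I-E beta chain gene without a working I-E alpha chain gene, which is background and not a result of these data.

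Per transcript length, *Cd74* was the most abundant of the 8 genes in every library, at 933 to 2085 TMM RPKM, which is TMM CPM per kilobase of 1 principal transcript. *H2-Aa* (508 to 1143 TMM RPKM) and *H2-Ab1* (671 to 1115 TMM RPKM) came next, and their order changed between libraries. *H2-Eb1* was at 173 to 303 TMM RPKM and *Ctss* at 116 to 205 TMM RPKM. The H2-DM chains were lower, with *H2-DMb1* at 28.4 to 68.3 TMM RPKM and *H2-DMa* at 27.1 to 63.2 TMM RPKM, ranges that overlap. *Ciita*, the coactivator, was lowest at 1.83 to 4.06 TMM RPKM, with 307 to 1050 counts per library.

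The chains of the I-A molecule were low in the libraries numbered 2. Within a number, values are listed in the order vehicle, 1,25D3, co-treatment. *H2-Aa* was at 1282, 1275 and 1289 TMM CPM in number 1, at 591, 744 and 573 TMM CPM in number 2, and at 1012, 1264 and 973 TMM CPM in number 3. All 3 libraries numbered 2 were below all others, and in number 3 the library labelled 1,25D3 3 stood at the level of number 1. How many of all genes separate by number in this way was not counted, here and for the genes below. *H2-Ab1*, which encodes the partner chain, was at 1245, 1315 and 1234 TMM CPM in number 1. It was at 823, 901 and 813 TMM CPM in number 2, and at 844, 1352 and 934 TMM CPM in number 3. For *H2-Ab1*, number 2 lay below number 1 and overlapped number 3, where the library labelled vehicle 3 was within the range of number 2.

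*H2-Eb1*, the I-E beta chain, was at 466, 505 and 459 TMM CPM in number 1. It was at 293, 348 and 288 TMM CPM in number 2 and at 411, 500 and 408 TMM CPM in number 3. Number 2 was below all 6 other libraries.

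*Cd74*, the invariant chain, was at 2829, 2895 and 2818 TMM CPM in number 1. It was at 1316, 1789 and 1318 TMM CPM in number 2, and at 2170, 2939 and 2115 TMM CPM in number 3. Again number 2 was lowest, the library labelled 1,25D3 2 was the highest of the 3, and the library labelled 1,25D3 3 resembled number 1.

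The H2-DM chains, which load the peptide, showed the same order. *H2-DMa* was at 102, 104 and 101 TMM CPM in number 1, at 44.9, 55.9 and 47.0 TMM CPM in number 2, and at 78.3, 105 and 76.4 TMM CPM in number 3. *H2-DMb1* was at 90.0, 95.9 and 89.2 TMM CPM in number 1, at 42.2, 47.8 and 39.8 TMM CPM in number 2, and at 71.4, 94.2 and 68.4 TMM CPM in number 3. For both, number 2 did not overlap the rest. *H2-DMa* shares exonic positions with *Brd2* on the opposite strand, and *H2-DMb1* has a close copy, *H2-DMb2*. The strand setting of the counting was not given, so the value of *H2-DMa* is uncertain to that extent. Only unique alignments were counted, so reads alike in *H2-DMb1* and *H2-DMb2* may be missing from the value of *H2-DMb1*.

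*Ctss*, the protease of the invariant chain, was at 278, 266 and 272 TMM CPM in number 1, at 157, 173 and 161 TMM CPM in number 2, and at 217, 274 and 212 TMM CPM in number 3. The groups of number 1 and number 2 were apart by more than their ranges.

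*Ciita* behaved otherwise. It was at 14.9, 14.8 and 16.4 TMM CPM in number 1, at 11.0, 19.0 and 11.3 TMM CPM in number 2, and at 24.4, 14.99 and 23.1 TMM CPM in number 3. The highest libraries were those labelled vehicle 3 and co-treatment 3, and number 2 spanned the level of number 1, with its library labelled 1,25D3 2 above and the other 2 below. The summed markers of crypt epithelium, plasma cells and macrophages were also highest there, as was the sum of the interferon gamma pathway, though not each gene. The crypt marker *Ascl2* was at 2.27 and 2.75 TMM CPM there and at 1.86 to 3.97 elsewhere. The 6 crypt markers summed to 604 and 582 TMM CPM in these 2 libraries and to 252 to 381 in the other 7, with *Olfm4* at 412 and 390 TMM CPM. The 6 plasma cell markers summed to 17358 and 16767 TMM CPM and to 9787 to 11970 in the other 7. That sum followed *Igha*, at 12704 and 12106 TMM CPM there and at 4469 to 8557 elsewhere. *Mzb1* was also highest there, *Tnfrsf17* only in co-treatment 3, and *Jchain*, *Sdc1* and *Xbp1* were not. *Jchain* was at 4230 and 4236 TMM CPM there and at 4830 to 4952 in number 1. The 12 macrophage markers summed to 439 and 419 TMM CPM there and to 317 to 403 in the other 7. The 13 genes of the interferon gamma pathway summed to 813 and 808 TMM CPM there and to 703 to 763 in the other 7. The sum of dendritic cell markers was highest in the library labelled 1,25D3 2, at 127 TMM CPM, and was 125 and 126 there. The part of these cells or of this pathway in the level of *Ciita* was not tested. *Ciita* shares exonic positions with *Dexi* on the opposite strand.

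**Figure D1:**
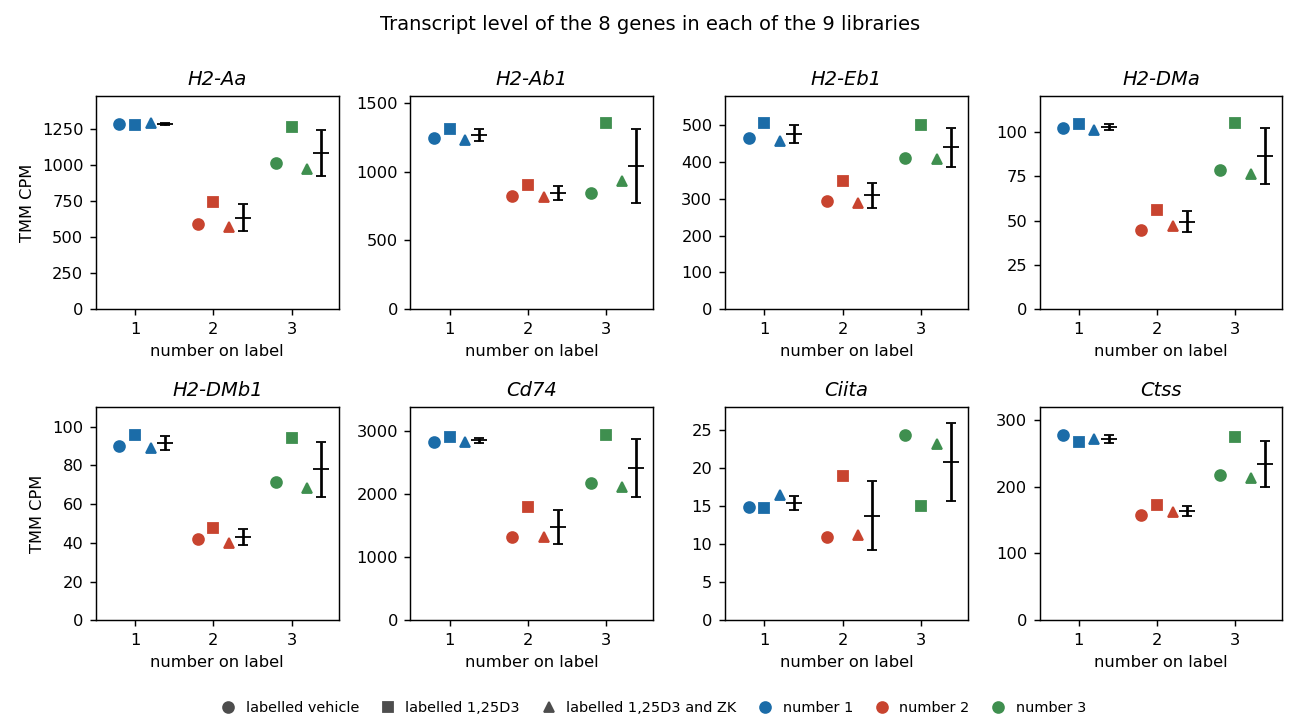
Level of each of the 8 genes in TMM CPM (vertical axis, from 0) in the 9 libraries, by number on the label (horizontal axis, colour) and treatment label (shape), with black bars for the mean and SD of 3 libraries. For all genes but *Ciita*, the 3 libraries numbered 2 lie below the 3 numbered 1, as for *H2-Aa* at 573 to 744 against 1275 to 1289 TMM CPM. How many of all genes separate in this way was not counted. Between these numbers, 7131 of 15002 genes had an unadjusted edgeR p under 0.05 in either direction, which is another measure.

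To ask whether the treatment labels separate these genes, each pair of labels was compared with edgeR's quasi-likelihood test over 15002 genes, with Benjamini-Hochberg adjustment. A gene was called when its adjusted p was under 0.05 and its absolute log2 fold change over 0.58. By treatment label, 0 of the 8 genes were called in any of the 3 comparisons, and 0 of 15002 genes (0%) in each. At an unadjusted p under 0.05 there were 135, 24 and 147 genes for 1,25D3 against vehicle, co-treatment against vehicle and co-treatment against 1,25D3, none of them among the 8.

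The differences between treatment labels were small beside the spread within a label. *H2-Aa* averaged 962 ± 348 TMM CPM (SD, n = 3) under the vehicle label, 1094 ± 303 under the 1,25D3 label, and 945 ± 359 under the co-treatment label. Its log2 fold change of 1,25D3 against vehicle was 0.19, with a 95% interval from -0.69 to 1.06. *H2-Ab1* had the largest difference of that comparison, at 0.29 (-0.30 to 0.88). *Ciita* was at -0.04 (-0.79 to 0.71). For co-treatment against vehicle, the log2 fold changes of the 8 genes were between -0.05 (*H2-DMb1*) and 0.03 (*H2-Ab1*). For each of the 8 genes, the interval of at least 1 of these comparisons reaches past the fold threshold.

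Same-numbered libraries pair the vehicle and co-treatment labels in their deviations, a pairing seen in the data and not stated in the design. With the number as a block in these 6 libraries, the intervals narrowed. *H2-Aa* was then at -0.03 (-0.07 to 0.01), *H2-Ab1* at 0.04 (-0.02 to 0.10), *Cd74* at -0.01 (-0.05 to 0.03), and *Ciita*, with the widest interval, at 0.01 (-0.12 to 0.13), in log2 fold change. In this fit 2 genes were called over all genes, and 0 of the 8 were. All of these intervals lie within the fold threshold. The paired libraries were nearly alike, at a mean chi-square of 1.80, 3.39 and 4.44 per gene for numbers 1, 2 and 3. The intervals measure the spread between such pairs, and do not show that the treatments, whose labels are in doubt, were equal. With the number as a block in all 9 libraries, which the deviations do not bear out for number 3, the differences of 1,25D3 against vehicle were 0.22 (0.02 to 0.42) for *H2-Eb1*, 0.26 (0.04 to 0.47) for *H2-DMa* and 0.23 (0.03 to 0.42) for *H2-DMb1*, with an edgeR adjusted p of 0.632 for each.

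By number, the outcome was different. In number 2 against number 1, 7 of the 8 genes were called lower, against 8.25% of all 15002 genes called lower and 12.2% called higher. *H2-Aa* was at 636 ± 94.0 TMM CPM (SD, n = 3) in number 2 and 1282 ± 6.92 in number 1, a log2 fold change of -1.01 (SE 0.14, edgeR adjusted p = 0.000626). *H2-DMa* fell by 1.06 (SE 0.13, adjusted p = 0.000260) and *H2-DMb1* by 1.08 (SE 0.12, adjusted p = 0.000179), on the log2 scale. The mean level of these 3 genes was 50.4% to 52.8% lower in number 2 than in number 1. *Cd74* fell by 0.95 (SE 0.17, adjusted p = 0.00256), and *Ctss* by 0.73 (SE 0.11, adjusted p = 0.000719), on the log2 scale.

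The I-A and I-E beta chains moved less. *H2-Eb1* fell by 0.62 (SE 0.12, adjusted p = 0.00296) and *H2-Ab1* by 0.58 (SE 0.17, adjusted p = 0.0216) on the log2 scale. *H2-Ab1* passed the fold threshold of 0.58 only narrowly. Leaving out the library labelled vehicle 1, 1,25D3 1, co-treatment 1, vehicle 2, co-treatment 2, vehicle 3 or co-treatment 3 ended its call, at log2 fold changes from -0.60 to -0.55, and leaving out 1,25D3 2 or 1,25D3 3 did not. The call of *H2-Eb1* ended without 1,25D3 1 (-0.58) or co-treatment 2 (-0.57), on the same scale. *Ciita* was not called, at -0.16 (95% interval from -0.67 to 0.36, adjusted p = 0.616). With library totals in place of TMM, which move the median of all genes by 0.20 on the log2 scale, 4 of the 8 genes were called lower, and 2651 genes were called higher and 630 lower in place of 1830 and 1237.

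In number 3 against number 2, 4 of the 8 genes were called higher, against 4.53% of all genes called higher and 6.81% called lower. *H2-DMb1* rose by 0.85 (SE 0.12, adjusted p = 0.000945), *H2-DMa* by 0.81 (SE 0.13, adjusted p = 0.00152), *H2-Aa* by 0.77 (SE 0.14, adjusted p = 0.00371) and *Cd74* by 0.71 (SE 0.17, adjusted p = 0.0155), on the log2 scale with edgeR. *Ctss* at 0.52 (adjusted p = 0.00615) and *H2-Eb1* at 0.51 (adjusted p = 0.0118) had a lower fold than the threshold. *H2-Ab1* was at 0.30 (adjusted p = 0.228) and *Ciita* at 0.61 (adjusted p = 0.0832), neither called. This comparison shares its libraries numbered 2 with the one before.

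In number 3 against number 1, 0 of the 8 genes and 0% of all genes were called by edgeR, and 3940 genes had an unadjusted p under 0.05, while DESeq2 called 398 genes. Without the library labelled 1,25D3 3, which was close to number 1, 11.4% of 14880 genes were called higher and 7.71% lower, and 1 of the 8 genes, *Ciita*, was called higher, at 0.63 (SE 0.19, adjusted p = 0.0143) on the log2 scale. The other 7 genes were below number 1 at adjusted p from 8.39e-05 to 0.0396, with log2 fold changes from -0.51 (*H2-Ab1*) to -0.22 (*H2-Eb1*), under the fold threshold. In number 3 against number 2 without the same library, 6.51% of genes were called higher and 9.09% lower. *Ciita* was then called higher (0.78, adjusted p = 0.00456), *H2-Aa*, *H2-DMa* and *H2-DMb1* were again called higher (0.64, 0.65 and 0.69), and *Cd74* at 0.54 (adjusted p = 0.00218) was under the fold threshold. *Cd74* was also not called without vehicle 2 (0.63, adjusted p = 0.0762) or without co-treatment 2 (0.63, adjusted p = 0.0725).

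**Figure D2:**
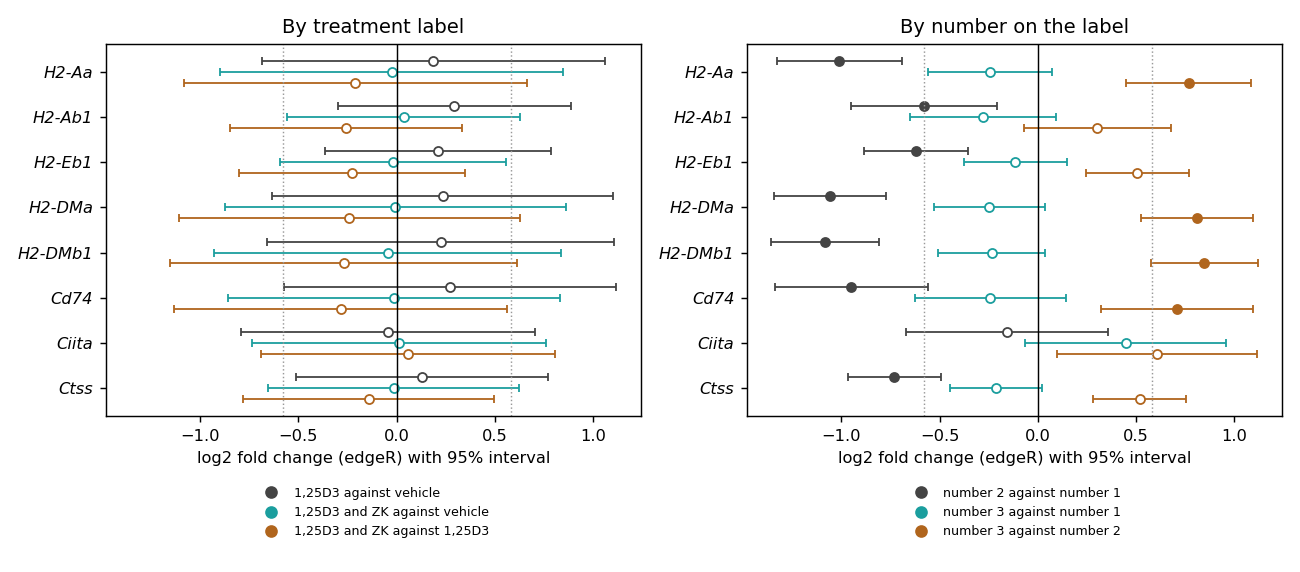
Log2 fold change with its 95% interval for each gene by treatment label (left) and by number on the label (right), from edgeR; filled points were called, open points were not, and dotted lines mark the fold threshold of 0.58. All points on the left are open and near 0, and on the right 7 genes are filled below 0 for number 2 against number 1, with *Ciita* open at -0.16.

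As a description of the same split, the share of variance of log2 CPM between the 3 numbers was 84.7% to 92.0% for *H2-Aa*, *H2-Eb1*, *H2-DMa*, *H2-DMb1*, *Cd74* and *Ctss*, 64.9% for *H2-Ab1* and 45.2% for *Ciita*. Its median over all genes was 56.5%. The share between treatment labels was 0.13% to 19.9% for the 8 genes, with a median of 11.0% over all genes.

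The balance between chains that work as a pair was looked at per length within each library. *H2-DMa* to *H2-DMb1* stood at 0.900 to 1.00 in all 9 libraries, with ranges that overlapped between the numbers. *Cd74* to *H2-Aa* was at 1.72 to 1.92 in all 9. *H2-Aa* to *H2-Ab1*, the I-A pair, was 1.04 to 1.12 in number 1, 0.757 to 0.888 in number 2 and 1.00 to 1.29 in number 3. Number 2 was thus below both others, and its log2 ratio was 0.44 lower than in number 1. With 3 against 3 libraries, the exact two-sided permutation test gave p = 0.1, the smallest it can give, and 0.25 after adjustment over 5 pairs of genes. *Cd74* to *H2-Ab1* was likewise lower in number 2, at 1.38 to 1.71, than in number 1, at 1.89 to 1.96, with the same p and adjusted p for a log2 ratio that was 0.38 lower. Of the other pairs, *H2-Eb1* to *H2-Ab1* stood at 0.257 to 0.281 in number 2 and 0.270 to 0.279 in number 1. *Ciita* to *H2-Aa* was 0.00218 to 0.00239 in number 1 and 0.00348 to 0.00480 in number 2, with no overlap.

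**Figure D3:**
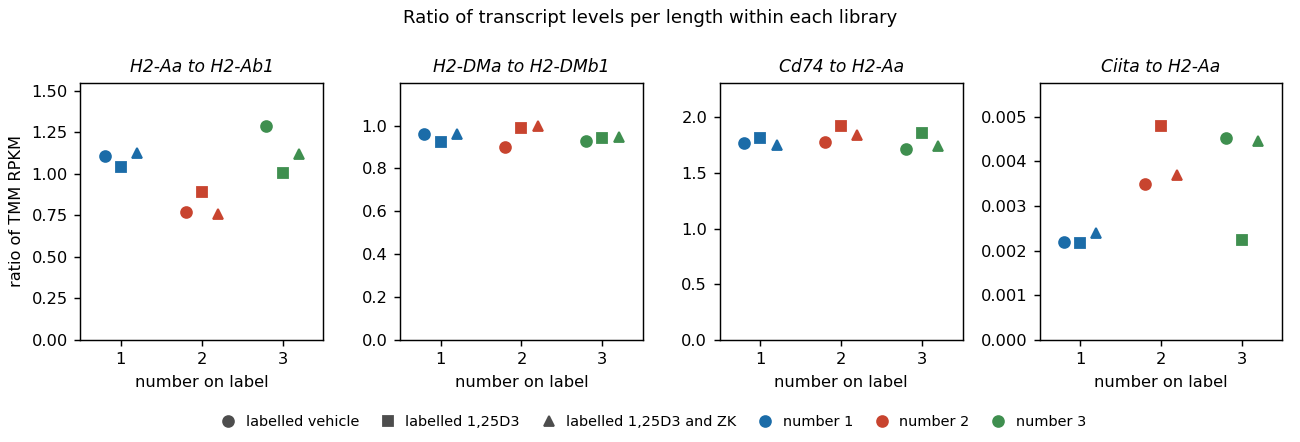
Ratio of TMM RPKM of 2 genes within each library (vertical axes, from 0) by number on the label, with shapes for the treatment label. *H2-DMa* to *H2-DMb1* and *Cd74* to *H2-Aa* stay level, *H2-Aa* to *H2-Ab1* is lowest in number 2 at 0.757 to 0.888, and *Ciita* to *H2-Aa* is lowest in number 1 and in the library labelled 1,25D3 3.

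Of the 4 other class II chains, 3 went the opposite way from the main chains. *H2-Ob* encodes the beta chain of H2-O, an inhibitor of H2-DM made mainly by B cells. *H2-Ob* was at 2.31, 2.11 and 3.01 TMM CPM in number 1, at 4.91, 6.88 and 5.14 TMM CPM in number 2, and at 2.69, 1.81 and 2.71 TMM CPM in number 3, and rose by 1.20 (SE 0.21, adjusted p = 0.00185) in number 2 against number 1 on the log2 scale. *H2-Eb2*, a second E beta chain gene, was at 0.728, 1.20 and 1.04 TMM CPM in number 1, at 2.85, 3.84 and 2.08 TMM CPM in number 2, and at 1.31, 0.927 and 0.881 TMM CPM in number 3. It rose by 1.54 (adjusted p = 0.00265) in number 2 against number 1. *H2-DMb2* was at 3.08, 3.57 and 3.92 TMM CPM in number 1, at 4.01, 7.78 and 4.69 TMM CPM in number 2, and at 2.92, 3.08 and 2.95 TMM CPM in number 3, and rose by 0.64 (adjusted p = 0.0489). *H2-Oa*, the alpha chain of H2-O, was not called, at -0.04 (adjusted p = 0.855). Of the 10 chains and chaperones in all, 6 were called lower and 3 higher in number 2 against number 1. Over all genes, 8.25% were called lower and 12.2% higher. The median log2 fold change of the 10 was -0.60 beside 0.03 over all genes. In number 3 against number 2, *H2-Ob* (-1.20), *H2-Eb2* (-1.48) and *H2-DMb2* (-0.89) were called lower.

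Markers of B cells moved with these chains. All 11 of 11 B cell markers were called higher in number 2 against number 1, with a median of 4.28 on the log2 scale, among them *Ms4a1* (CD20) at 0.128 to 0.334 TMM CPM in number 1 and 4.14 to 10.7 in number 2. The summed level of the 11 markers was 42.2 to 46.0 TMM CPM in number 1, 99.8 to 160 in number 2 with the highest value in the library labelled 1,25D3 2, and 45.9 to 58.4 in number 3. That library was also the highest of number 2 for all 8 genes. The part of B cell RNA in these results was not tested.

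Of markers of the other class II-bearing cells, some were called in either direction, beside 20.4% of all genes in number 2 against number 1. Of 11 dendritic cell markers, 0 were called higher and 1, *Cd209a*, lower (-0.94), with a median of 0.18. Their summed level was 118 to 120 TMM CPM in number 1 and 121 to 127 in number 2. Without *Irf8*, which was at 53.1 to 54.7 TMM CPM in number 1 and 70.5 to 71.6 in number 2, the other 10 summed to 64.4 to 66.3 in number 1 and 49.97 to 56.8 in number 2. Of 12 macrophage markers, *Cd163* (1.86) and *Mrc1* (0.67) were called higher and *Mertk* (-0.89) lower, with a median of 0.12. Their sum was 383 to 392 TMM CPM in number 1 and 317 to 339 in number 2, and without *Mertk* it was 233 to 243 and 241 to 245. *Irf8* and *Mertk* were picked after the values were seen, as the genes that moved these sums most. The sums without them are thus a description and no test. Of 9 T cell markers, 0 were called.

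The summed level of the 10 enterocyte markers was 34867 to 35960 TMM CPM in number 1 and 36516 to 38053 in number 2, and was 28022 and 28238 in libraries co-treatment 3 and vehicle 3. Without *Apoa4*, the other 9 summed to 24782 to 25027 TMM CPM in number 1 and 17771 to 19266 in number 2, and the median log2 fold change of the 10 was -0.18. *Apoa4* was picked after the values were seen, as the gene that moved the sum most. *Sis*, encoding sucrase-isomaltase, was called lower (-1.90) and so was *Fabp1* (-0.90), and *Apoa4* was called higher (0.86). That is 30% of the list, beside 20.4% of all genes called in either direction. Of 7 duodenum identity genes, the duodenal factor *Pdx1* (1.50) and the ferric reductase *Cybrd1* (2.52) were called higher and *Cdx1* lower (-0.93) in number 2. That is 42.9% of the list, beside the same 20.4%. *Gata4*, *Gata6*, *Cdx2* and *Slc40a1* were not called, with *Gata6* at 74.8 to 78.4 TMM CPM in number 1 and 62.9 to 67.8 in number 2. Acinar markers of the pancreas took 4.36%, 0.941% and 4.18% of all counts in number 2, 0.425% and 0.417% in libraries vehicle 3 and co-treatment 3, and 0.00381% to 0.00457% in the others. With the acinar markers left out of the TMM scaling, fold changes of number 2 against number 1 moved by a median of -0.0054 (log2). In that fit 7 of the 8 genes were still called lower. Only the scaling was altered, so this cannot show the part of pancreatic tissue. The part of the sampled position or of pancreatic tissue in these results was not tested.

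Of 8 regulators of the class II promoters, *Ciita* included, none was called in number 2 against number 1 (median -0.04), beside 20.4% of all genes in either direction. In so short a list, no call is not far from that share. *Rfx5*, a subunit of RFX, was at 0.03 (adjusted p = 0.873), *Rfxap* at -0.12 and *Rfxank* at -0.24 (adjusted p = 0.0474). The NF-Y subunit genes *Nfya* (0.37), *Nfyb* (0.12) and *Nfyc* (-0.36), and *Creb1* (0.22), were also under the fold threshold. The libraries labelled vehicle 3 and co-treatment 3 had the 2 highest values of *Rfx5*, 7.88 and 9.21 TMM CPM, as of *Ciita*, but the fold of *Rfx5* in number 3 against number 1 without 1,25D3 3 stayed under the threshold, at 0.40 (adjusted p = 0.00643).

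**Figure D4:**
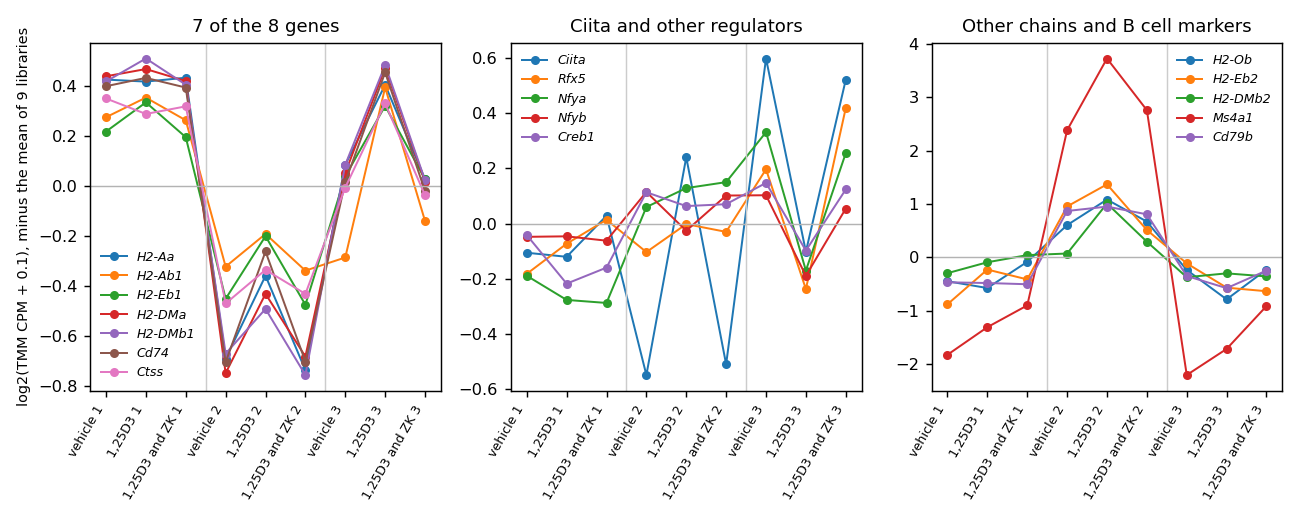
Level of each gene as log2(TMM CPM + 0.1) minus its mean over the 9 libraries, in the order of numbers 1, 2 and 3 (vertical lines), for 7 of the 8 genes (left), *Ciita* and 4 other regulators (middle) and *H2-Ob*, *H2-Eb2* and *H2-DMb2* with 2 B cell markers (right), on separate scales. The left curves dip in number 2 while those on the right peak there, and *Ciita* is highest in libraries vehicle 3 and co-treatment 3.

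Interferon gamma is the main inducer of *Ciita* in many cell types. *Ifng* itself was at 0.088 to 0.199 TMM CPM, with 40 counts over all libraries, and was not tested. Of 12 tested genes of this pathway, *Socs1* (1.59) and *Cxcl10* (0.68) were called higher in number 2 against number 1, and none lower. That is 16.7% of them called higher, near the 12.2% of all genes. Both were low, *Socs1* at 0.649 to 0.771 TMM CPM in number 1 and 1.60 to 2.76 in number 2. *Cxcl10* was at 1.67 to 2.31 TMM CPM in number 1 and 2.85 to 3.35 in number 2. *Irf1*, encoding a transcription factor of this pathway, was not called, at 0.24 (adjusted p = 0.0343). Of this list, only *Ifngr1*, *Gbp2* and *Irf2* were highest in libraries vehicle 3 and co-treatment 3, as *Ciita* was. *Ifngr1* was at 130 and 132 TMM CPM there and at 77.2 to 111 elsewhere. *Gbp2* was at 20.1 and 18.5 TMM CPM there and at 13.0 to 17.4 elsewhere. Without 1,25D3 3, 0 of the 12 were called in number 3 against number 1, beside 11.4% of all genes higher and 7.71% lower.

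Of the 10 genes for endosomal proteases and antigen processing, the list split, with 50% called in either direction beside 20.4% of all genes. *Ctss*, *Ifi30* (-0.74), a thiol reductase of the endosome, and *Ctsb* (-0.59), cathepsin B, were called lower in number 2 against number 1. *Ctsl*, cathepsin L, was at 56.4 to 58.3 TMM CPM in number 1 and at 131 to 154 in number 2, and rose by 1.34 (adjusted p = 3.74e-06) on the log2 scale. *Lgmn*, the asparagine endopeptidase, rose by 0.99 (adjusted p = 2.1e-05). In thymic epithelium, cathepsin L takes the place of cathepsin S in cutting the invariant chain.

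Class I presentation, which shows peptides of the cytosol to CD8+ T cells, had 2 of 15 genes called lower in number 2 against number 1, or 13.3% beside 8.25% of all genes, and 0 higher. These were *Tap1* (-0.88, adjusted p = 0.000894), a subunit of the peptide transporter, and *B2m* (-0.63, adjusted p = 0.00894), the light chain of class I. The median of the 15 genes was -0.40. *Nlrc5*, a relative of CIITA that drives class I genes, was at 0.87 (adjusted p = 0.105), and like *Ciita* it was highest in libraries vehicle 3 and co-treatment 3, at 6.90 and 7.95 TMM CPM.

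Over all genes tested, the profiles most like the mean of *H2-Aa*, *H2-Ab1* and *Cd74* across the 9 libraries were sought by the root mean square difference of centred log2 values. The nearest were *Cyb5r3* (0.0265), *Midn* (0.0296), *Gna11* (0.0305), *Dag1* (0.0353), *Pgm1* (0.0379), *Btnl1* (0.0388), *Myo1d* (0.0392) and *Hkdc1* (0.0436), beside a median of 0.453 over 14981 genes. *Cd74* itself ranked 30th at 0.0672, *Ctss* 88th, *H2-Aa* 105th and *H2-Ab1* 475th, so many genes followed the same profile as closely as its own members. *Cyb5r3*, a cytochrome b5 reductase, was at 1179 to 1194 TMM CPM in number 1 and at 611 to 777 in number 2. *Btnl1*, a butyrophilin-like surface protein of gut epithelium, was at 463 to 482 TMM CPM in number 1 and at 255 to 306 in number 2.

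For *Ciita*, the nearest profile was that of *Igtp*, a GTPase, with a difference of 0.0857 on the same measure, followed by *Fgfbp1* (0.111), *Btbd7* (0.128), *2700049A03Rik* (0.131) and *Dock11* (0.131). *Igtp* was at 42.9 and 41.4 TMM CPM in libraries vehicle 3 and co-treatment 3, and at 20.8 to 29.8 in the other 7. For *Ctss* the nearest were *Rhoq* (0.0358), *Lgals2* (0.0364), *Thra* (0.0393), *Proz* (0.0395) and *Fblim1* (0.0411). *H2-Eb1*, at 0.0827, was the nearest of the other 7 genes to *Ctss*.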

How the data were processed

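The libraries were stranded mRNA, read from one end. Base calling by the authors used bcl2fastq 2.17.1.14. After removal of dimers, reads were aligned (Tophat, Bowtie2; mm10), and HTSeq counted unique alignments. The deposited values are raw counts per gene. Neither the strand setting nor the annotation release of HTSeq was found in the sources. Columns, headed by digits, were matched to samples through their descriptions.

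Of 48709 gene identifiers, 48349 matched a GENCODE M21 symbol. The 15002 genes whose counts sum to over 100 were scaled by TMM, and edgeR 4.0.16 (R 4.3.3) tested them over 9 libraries, with 1 mean per treatment label or per number. The alternatives were library totals, DESeq2 size factors, DESeq2 1.42.0, limma voom (limma 3.58.1), other filters, no minimum fold, fewer libraries, the number as a block or the treatment as a term, and each library left out. Close libraries were summed as an alternative chosen after seeing the data. The test was tried on simulated data. Deviations of same-numbered libraries from their label means correlated at 0.84 to 0.92 for 1,25D3 and ZK with vehicle, from the data and not the design, and at -0.03 and -0.01 for number 3 in the other comparisons. The members, lists and rules were chosen with earlier results of these data known. Named were all 8 genes, every gene of the chain and regulator lists, called genes and defining markers of the other lists, and the nearest profiles. Depth was 22561400 to 41207455 counts. Promoter sequences are from RefSeq. Some genes of the lists are counted but not reported here by name.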

Additional observations from a re-analysis of the deposited data

How the results depend on the processing

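Of 1180 values recomputed under 22 settings, 1136 were labelled the same, and 0 called fold changes reversed. The label means the same side of the calling thresholds for a fold change, and a similar number for a count of genes. Fold changes called in neither fit could change sign under this label. For *H2-Aa*, 1,25D3 against vehicle was at 0.19, and at -0.06 without vehicle 2, on the log2 scale. In number 2 against number 1, 3067 genes were called, and 1537 with a filter of over 10 CPM in 3 libraries, 5751 with no minimum fold change and 2368 to 3441 with 1 library left out. Of the 8 genes, 7 were called there, and 4 with library totals, 6 with close libraries summed and 5 to 7 with 1 library left out. In number 3 against number 2, 1702 genes were called, and 940 with the filter of over 10 CPM, 3475 with no minimum fold change and 1258 to 2320 with 1 library left out. Of the 8 genes, 4 were called there, and 2 with close libraries summed and 3 to 6 with 1 library left out. In number 3 against number 1, 0 genes were called, and 467 with no filter on low counts, 398 with DESeq2, 1148 with close libraries summed and 0 to 2850 with 1 library left out, where the highest is without 1,25D3 3. Of the 8 genes, 0 to 1 were called there with 1 library left out. The causes were not tested, apart from the fewer genes tested under the stricter filter. By treatment label, 0 genes and 0 of the 8 genes were called with any library left out.

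With the number as a replicate block in all 9 libraries, 0 genes were called between treatment labels, and in the 6 libraries of co-treatment against vehicle 2 genes were called, neither among the 8. The block changed no other call. *Ciita*, with 307 to 1050 counts per library, has the fewest reads of the 8 genes.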

Other observations

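Class II molecules show peptides together with costimulatory ligands. Of 6 such ligands, only *Icosl*, the ligand of ICOS, was called in number 2 against number 1, at 1.54 on the log2 scale (edgeR adjusted p = 0.00300), from 5.64 to 6.00 TMM CPM in number 1 to 15.9 to 18.2 in number 2. That is 16.7% of the ligands, beside 20.4% of all genes called in either direction. *Icosl* also reached 14.07 and 14.05 TMM CPM in vehicle 3 and its co-treatment counterpart of the same number, against 5.27 in 1,25D3 3. *Cd80* (-0.11), *Cd86* (0.48, adjusted p = 0.0405) and *Cd40* (0.17) were not called. Of 8 genes for class II ubiquitin ligases and trafficking, *Cd82*, a tetraspanin, was called lower (-0.70, adjusted p = 0.00761) and none higher. This is 12.5% of that list, again beside 20.4% of all genes. *March1*, encoding a ligase that removes class II from the surface, was at 0.52 (adjusted p = 0.0253), under the fold threshold.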
